A study of Mus musculus with 24 samples.

Results

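Callosal projection neurons of the mouse cortex, the excitatory neurons whose axons cross the corpus callosum to the opposite hemisphere, were followed over birth, from embryonic day 18 (E18) to postnatal day 1 (P1). Of the 32310 entries in the expression table, 13216 reached an FPKM (sequenced fragments per kilobase of a transcript, adjusted for library size) of 1 or more in callosal neurons at E18, at P1 or at both, and these genes are the ones described. The cells came from CD1 mice, an outbred strain for which the labels give no genetic change and no treatment, and were isolated by fluorescence-activated sorting. The labels list 2 libraries of E18 callosal neurons and 2 of P1 callosal neurons, but the table holds 1 pooled value per group, so a callosal value has no SD and a callosal difference has no p-value. The subcerebral neurons, which project to the brainstem and spinal cord, and the corticothalamic neurons, which project to the thalamus, were sampled at the same stages from the same strain and served to tell changes shared by the 3 subtypes from changes of callosal neurons. The sources used here name neither the sort markers nor the number of animals behind a library.

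Around birth, callosal axons have crossed the midline or are crossing it, and their neurons are settling in the cortical layers, extending dendrites and beginning to form synapses. Excitability and synaptic release are built up over this period, and mitochondrial respiration becomes the main source of energy of maturing neurons. Cux2, a homeobox transcription factor of upper-layer callosal neurons, was at 59.1, 65.2, 75.8 and 104 FPKM in callosal neurons from E15 to P1. Its value was 3.07 FPKM at E18 and 1.61 FPKM at P1 in subcerebral neurons, and 6.8 and 3.86 FPKM in corticothalamic neurons. Bcl11b, which marks subcerebral neurons, did not exceed 1.16 FPKM in callosal neurons at E18 or P1, and the corticothalamic gene Tle4 did not exceed 2.31 FPKM. These 3 markers follow the label at both stages, but not all listed marker genes do. Corticothalamic Tbr1 was at 72.9 and 47.2 FPKM in callosal and 29.2 and 15.7 FPKM in subcerebral neurons at E18 and P1. Bcl6, listed as subcerebral, was at 46.7 and 11.2 FPKM, against 5.20 and 2.85 FPKM. The 20 subcerebral genes summed to 184 and 170 FPKM in callosal against 1184 and 1454 FPKM in subcerebral neurons. The 18 corticothalamic genes summed to 343 and 380 FPKM, against 1912 and 1831 FPKM in corticothalamic neurons.

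Most genes changed little over this interval. The step of a gene is its log2(FPKM + 1) at P1 minus that at E18, so a step of 1 is a 2-fold rise on this scale and the added 1 shrinks the steps of low genes. The median callosal step was 0.01, and 75.6% of the genes had a step within 0.5 of 0. At least 2-fold higher at P1 were 297 genes (2.25%), and at least 2-fold lower were 216 (1.63%). Among genes of 100 FPKM or more at either stage, 16 were 2-fold higher and 3 were 2-fold lower, of 749. Of the 297 higher genes 67 reached 1 FPKM only at P1, and of the 216 lower genes 55 reached it only at E18, so that these had to differ to be included at the lower value. P1 was the highest of the 4 callosal stages for 285 of the 297 genes and the lowest for 209 of the 216. Choosing genes by P1 against E18 favours this. Every change from stage to stage went in the same direction for 172 of the 297 and 94 of the 216. The counts depend on the added constant: with 0.1 in place of 1, 579 genes were higher and 568 lower, and with 5, 82 and 33. Requiring 5 FPKM in either column left 212 higher genes and 140 lower ones. Entries near the 2-fold line were many, 382 lying within 0.1 of it, with Pcdh15 just below at 1.00 (2.73 FPKM at E18 and 6.47 FPKM at P1).

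**Figure D1:**
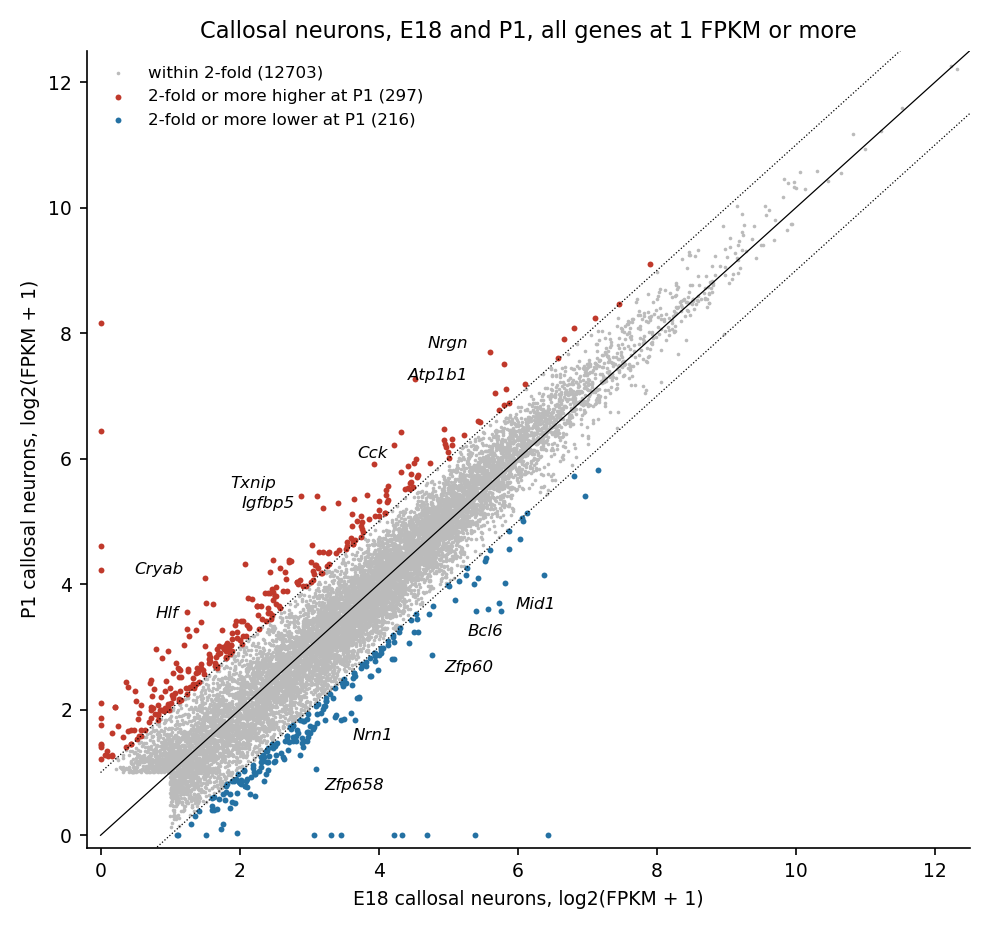
Expression of the 13216 genes in callosal neurons at E18 (x axis) and P1 (y axis), both as log2(FPKM + 1), with 1 pooled value per gene and stage and no error. Red points are the 297 genes at least 2-fold higher at P1 and blue points the 216 at least 2-fold lower. The solid line marks equal values and the dotted lines a 2-fold difference, and points on the axes are genes listed at 0 at one of the stages.

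The largest callosal rises included stress, metabolic, extracellular and postsynaptic genes. Cryab, a small heat shock protein, was at 1.84 FPKM at E18 and 16.1 FPKM at P1 (step 2.59). Txnip, which binds thioredoxin and restrains glucose uptake, went from 6.41 to 41.4 FPKM (step 2.52), after 2.97 and 3.05 FPKM at E15 and E16. Sidt1, a membrane protein of the SID-1 family, was at 1.37 and 10.8 FPKM (step 2.31), and Igfbp5, which binds insulin-like growth factors, at 7.62 and 41.5 FPKM (step 2.30). These 4 genes were also higher at P1 in both other subtypes, with steps of 0.69 and 2.09 for Cryab, 2.48 and 1.43 for Txnip, 1.82 and 1.66 for Sidt1, and 2.08 and 2.09 for Igfbp5 in subcerebral and corticothalamic neurons. Other large rises were those of the glypican Gpc5 (1.86 and 12.1 FPKM, step 2.19), the Notch target Hes1 (0.742 and 6.83 FPKM, step 2.17) and Vstm2l (18.9 and 84.8 FPKM, step 2.11). In corticothalamic neurons the steps of these genes were 0.28 for Gpc5, 0.46 for Hes1 and 0.70 for Vstm2l, while in subcerebral neurons they were 1.82, 2.25 and 1.86. Nrgn, or neurogranin, which holds calmodulin in dendritic spines, climbed through the series, from 0.472 and 5.51 FPKM at E15 and E16 to 47.4 FPKM at E18 and 207 FPKM at P1 (step 2.11). Ddn, a postsynaptic protein, went from 2.06 to 11.9 FPKM (step 2.08). Creb3l1, a membrane-bound transcription factor, was at 1.37 and 8.77 FPKM (step 2.04), and Sulf2, which trims sulfate groups from heparan sulfate, at 8.21 and 36.2 FPKM (step 2.01). Among more abundant genes, Atp1b1, a sodium pump subunit, had 54.7 FPKM at E18 and 182 FPKM at P1 (step 1.71).

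The largest falls included a ubiquitin ligase, a transcriptional repressor and zinc finger genes. Mid1, a ubiquitin ligase that binds microtubules, was at 53.1 FPKM at E18 and 10.9 FPKM at P1 in callosal neurons (step -2.18). It was at 33.8 and 20.9 FPKM at E15 and E16, so its E18 value was the highest of the series. The entry Fxy, an older name of Mid1, gave 52.2 and 12 FPKM (step -2.04) and is the same gene listed again. Mid1 lies on the X chromosome. Bcl6, a transcriptional repressor, was at 46.7 FPKM and then 11.2 FPKM (step -1.97), and its levels in the other subtypes were at most 5.20 FPKM. The zinc finger gene Zfp658 went from 7.56 to 1.07 FPKM (step -2.05) and Zfp60 from 26.3 to 6.29 FPKM (step -1.90). Fam84a was at 41.2 and 10.9 FPKM (step -1.82), and the calcium-binding copine Cpne1 at 11.6 and 2.59 FPKM (step -1.81). St8sia4, which adds polysialic acid to the adhesion molecule NCAM, was at 11.1 and 2.85 FPKM (step -1.66), and Nrn1, a promoter of neurite growth, at 10.4 and 2.60 FPKM (step -1.66). Zfp658, Zfp60, Cpne1, St8sia4 and Nrn1 were lower by at least 2-fold in all 3 subtypes, whereas the steps of Fam84a were -0.49 in subcerebral and -1.61 in corticothalamic neurons, and those of Bcl6 were -0.69 and -1.51. The entries with the very largest steps in both directions were small RNA genes and entries named only by a sequence accession, many of them listed at 0 at one stage. Of 21 small RNA genes 11 were 2-fold higher and 5 were 2-fold lower, against 2.25% and 1.63% of all genes.

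**Figure D2:**
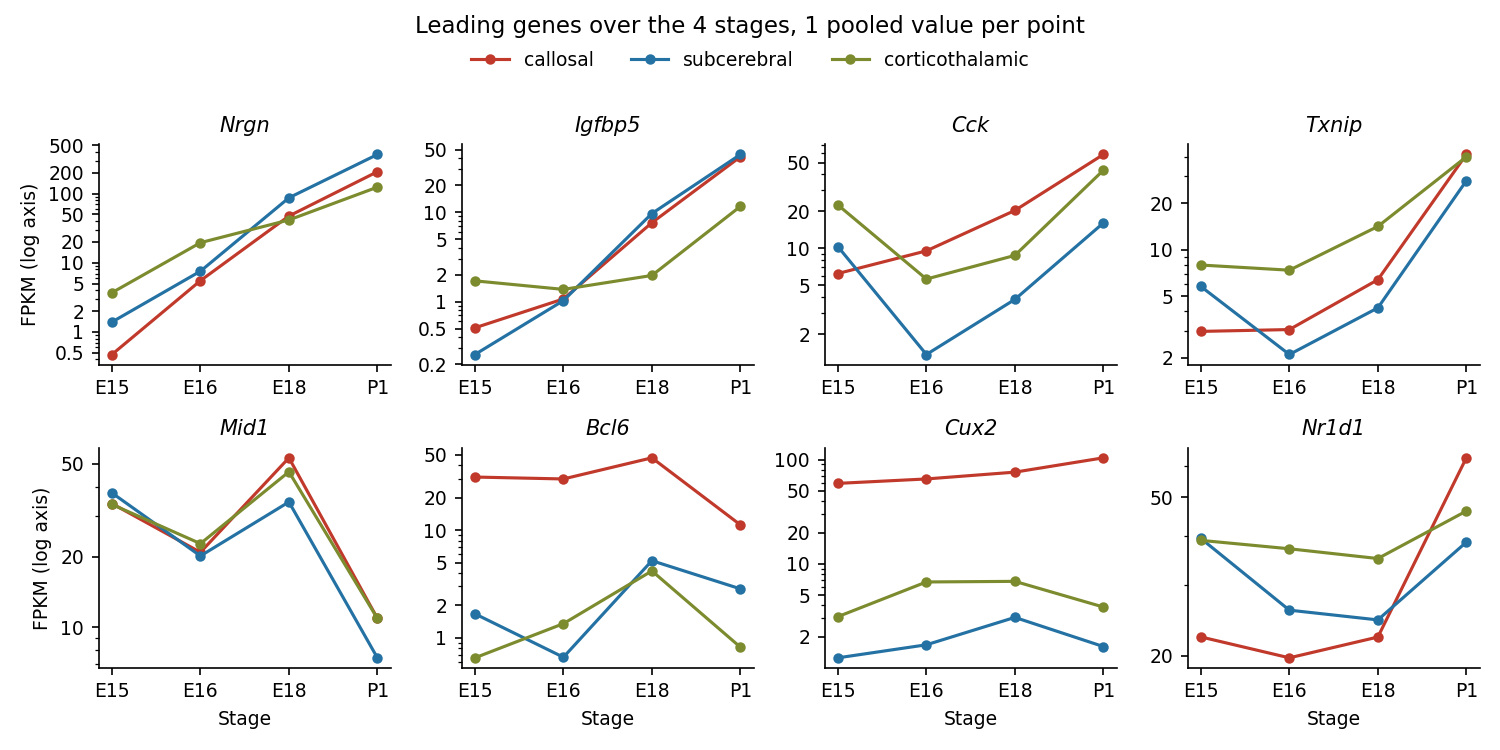
FPKM (log axis) at E15, E16, E18 and P1 (x axis) for 8 genes in callosal (red), subcerebral (blue) and corticothalamic (green) neurons, 1 pooled value per point. Nrgn and Igfbp5 rise from stage to stage in callosal neurons, Mid1 drops from 53.1 to 10.9 FPKM after E18, and Cux2 stays highest in callosal neurons at all 4 stages.

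Whether a stage difference held over the subtypes was tested with limma on all 12 groups, with terms for stage and subtype. These p-values measure how even a difference is over the 3 subtypes and say nothing of the spread between libraries. Age cannot be told apart from collection, preparation or sequencing where the groups of a stage shared them. At an adjusted p under 0.05, 2740 of 13946 genes (19.6%) were higher at P1 than at E18 and 2869 (20.6%) were lower. The counts below for gene groups are to be read against these shares, and the groups were chosen with earlier results of these data known.

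The group of neurotrophins, their receptors, neuropeptides and secretory granule genes had the highest median callosal step of the gene groups with 10 or more members, 0.86 over the 14 of its 26 genes that were members, against 0.01 over all genes. Neuropeptides are packed with granins and cut from their precursors by convertases in dense-core vesicles. Of the 14, 5 were at least 2-fold higher at P1, 1 was 2-fold lower, and 4 passed the limma test as higher and none as lower. The peptide gene Cck was at 20.4 FPKM at E18 and 58.1 FPKM at P1 in callosal neurons (step 1.47), against 3.85 and 16.1 FPKM in subcerebral and 8.77 and 43.2 FPKM in corticothalamic neurons. The granins Chgb (32.2 and 73.5 FPKM, step 1.17) and Scg2 (31.0 and 67.6 FPKM, step 1.1) and the convertase Pcsk2 (21.1 and 53.0 FPKM, step 1.29) were higher as well. Vgf, a granin-like precursor, was at 1.72 and 5.33 FPKM (step 1.22). Npy was abundant already at E18, with 233 FPKM, and stood at 394 FPKM at P1 (step 0.76). The neurotrophin gene Ntf3 went the other way, from 6.86 FPKM at E18 to 2.11 FPKM at P1 (step -1.34). It did not exceed 0.320 FPKM in the other subtypes at these stages.

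The granin promoters are shown because both genes were higher together and both hold the cyclic AMP response element TGACGTCA, searched on both strands, which is found in 1.79% of 32851 mouse promoters of the same 300 bases (RefSeq, GRCm38.p6, from 250 bases before the transcription start to 50 after it). Among the 9060 promoters matched to the 13216 genes the share was 3.81%, and it was 2.92% of the 171 matched genes 2-fold higher at P1 and 3.01% of the 133 matched genes 2-fold lower. The same letters occur in the promoter of Hlf, a gene described further on. Capitals mark the match, which is a description of the letters and not evidence of binding. Scg2 spans chr1:79439977-79440276 on the minus strand with the match 68 bases before the start, Chgb chr2:132781392-132781691 on the plus strand with the match 72 bases before it, and Hlf chr11:90390868-90391167 on the minus strand with the match 9 bases before it.
Scg2: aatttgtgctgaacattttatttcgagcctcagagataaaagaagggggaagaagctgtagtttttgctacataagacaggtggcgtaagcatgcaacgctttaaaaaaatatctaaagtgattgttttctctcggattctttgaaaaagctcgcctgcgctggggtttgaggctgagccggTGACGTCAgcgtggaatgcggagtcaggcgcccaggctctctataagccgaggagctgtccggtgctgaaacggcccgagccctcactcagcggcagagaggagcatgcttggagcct
Chgb: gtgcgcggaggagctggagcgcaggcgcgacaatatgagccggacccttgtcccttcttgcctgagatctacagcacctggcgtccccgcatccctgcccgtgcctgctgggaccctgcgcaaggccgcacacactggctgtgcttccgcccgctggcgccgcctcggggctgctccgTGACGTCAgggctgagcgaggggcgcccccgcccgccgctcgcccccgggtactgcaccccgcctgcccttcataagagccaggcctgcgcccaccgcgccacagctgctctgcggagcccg
Hlf: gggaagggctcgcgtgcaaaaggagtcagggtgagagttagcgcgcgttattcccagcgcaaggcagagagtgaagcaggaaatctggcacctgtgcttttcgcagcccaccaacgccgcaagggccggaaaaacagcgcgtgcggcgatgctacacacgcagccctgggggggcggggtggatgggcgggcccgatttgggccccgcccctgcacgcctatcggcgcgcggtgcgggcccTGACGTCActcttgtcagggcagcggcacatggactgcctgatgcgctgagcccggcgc

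Genes of the synaptic vesicle and its release machinery had a median callosal step of 0.45 over 40 members, with 35 steps above 0. The medians were 0.44 in subcerebral and 0.49 in corticothalamic neurons. In the limma test 20 of the 40 were higher at P1 and none was lower, and 4 were 2-fold higher in callosal neurons. Cplx2, a complexin that clamps fusion, was at 55.8 and 137 FPKM (step 1.28). Sncb, or beta-synuclein, was at 20.5 and 45.4 FPKM (step 1.11), and Vamp1, a vesicle SNARE, at 1.41 and 4.08 FPKM (step 1.07). The vesicular glutamate transporter Slc17a7 was at 19.8 FPKM at E18 and 40.5 FPKM at P1 (step 1.00). Syp, an abundant vesicle protein, went from 92.7 to 159 FPKM and Snap25, a plasma membrane SNARE, from 50.7 to 87.1 FPKM, both with a step of 0.77.

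Receptors were less uniform. Glutamate receptor and postsynaptic density genes had a median callosal step of 0.21 over 40 members, with 7 of 39 tested passing as higher and 5 as lower. The obligatory NMDA receptor subunit Grin1 was at 40.8 FPKM at E18 and 78.6 FPKM at P1 (step 0.93), with steps of 1.19 and 1.04 in subcerebral and corticothalamic neurons. The AMPA receptor subunit Gria2 was lower at P1, at 225 and then 131 FPKM (step -0.78), with steps of -0.51 and -0.57 in the others. Camk2a, a kinase of the postsynaptic density, was at 4.20 and 9.69 FPKM (step 1.04). GABA receptor and chloride transport genes had a median of 0.30 over 19 members, with 6 of 18 higher and 1 lower. The chloride exporter Slc12a5 (KCC2) was at 9.57 and 17.6 FPKM (step 0.81), and Gabra5, an alpha subunit, at 17.2 and 34.9 FPKM (step 0.98). Synaptic organizers had a median of 0.13 over 39 members, with Nptxr, a receptor for neuronal pentraxins, at 11.3 and 29.3 FPKM (step 1.31).

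Among ion channels, potassium channel genes had a median callosal step of 0.33 over 44 members (0.16 with a pseudocount of 5), 0.16 in subcerebral and 0.23 in corticothalamic neurons, and 5 of them were 2-fold higher and none 2-fold lower. Kcnh1, a voltage-gated channel of the ether-a-go-go family, was at 5.53 FPKM at E18 and 19.8 FPKM at P1 (step 1.67). It stayed at 1.69 FPKM or below in the other subtypes at these stages. Kcns1, a modulatory subunit, was at 1.12 and 5.68 FPKM (step 1.65), the inward rectifier Kcnj4 at 5.30 and 17.3 FPKM (step 1.54), and Kcnip4, a subunit that binds A-type channels, at 3.79 and 10.4 FPKM (step 1.25). The inward rectifier Kcnj6 was at 0.649 and 3.14 FPKM (step 1.33). Sodium, calcium and HCN channel genes had a median of 0.02 over 26 members.

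Growth cone and cytoskeleton genes had a median callosal step of 0.30 over 36 members (0.085 after quantile normalization), with 29 steps above 0, and 10 passed the limma test as higher and 1 as lower. No member moved 2-fold. The growth-associated protein Gap43 was at 353 FPKM at E18 and 605 FPKM at P1 (step 0.78), and the tubulin-binding stathmins Stmn2 and Stmn3 were at 595 and 956 FPKM (step 0.68) and at 355 and 606 FPKM (step 0.77). Migration and early differentiation genes lay lower, with a median of -0.20 over 26 members, 5 passing as higher and 6 as lower. Neurod6, a bHLH factor of young pyramidal neurons, fell stage by stage in callosal neurons, from 782 FPKM at E15 through 625 and 498 to 253 FPKM at P1 (step -0.98).

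**Figure D3:**
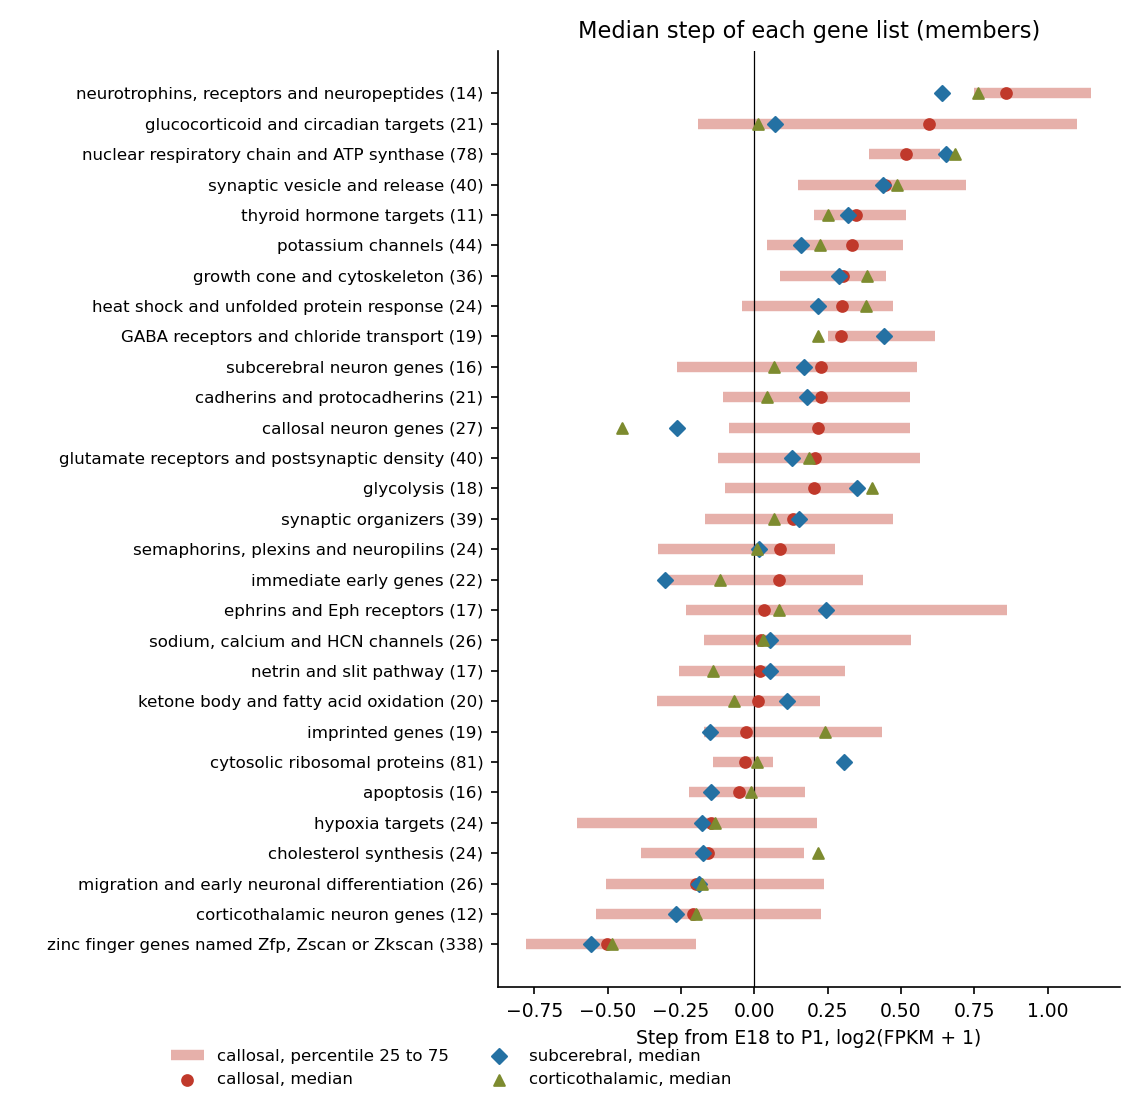
Median step from E18 to P1 in log2(FPKM + 1) (x axis) of gene groups with 10 or more members (y axis, number of members in parentheses). Groups of other cell types are not shown. Red circles are callosal, blue diamonds subcerebral and green triangles corticothalamic neurons. Pale bars span the callosal steps from percentile 25 to percentile 75. Neuropeptide genes lie at 0.86 and zinc finger genes at -0.50 in callosal neurons.

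Respiration genes moved together. The respiratory chain and ATP synthase, whose subunits encoded in the nucleus are assembled in the inner mitochondrial membrane, had a median callosal step of 0.52 over 78 members, and 76 of the 78 steps were above 0. The medians were 0.65 and 0.68 in subcerebral and corticothalamic neurons, and 71 of the 78 passed the limma test as higher at P1, 1 as lower. Steps were small, and none reached 2-fold in callosal neurons. The complex I subunits Ndufb6 (35.7 and 71.2 FPKM, step 0.98) and Ndufa1 (31.3 and 58.3 FPKM, step 0.88), the cytochrome c oxidase subunit Ndufa4 (148 and 260.1 FPKM, step 0.81) and the complex III subunit Uqcrq (55.9 and 99.1 FPKM, step 0.82) had the largest steps. Ndufa4 had been at 146 FPKM at both E15 and E16. Short transcripts had higher steps in general. Over 11658 genes with a known transcript length (88.2%), divided by length into 5 equal classes, the median callosal step was 0.15 in the shortest class and -0.09 in the longest. With each class centred at 0 the median of the respiratory chain was 0.37, and after quantile normalization it was 0.33. Cytosolic ribosomal proteins, also encoded by short transcripts, had medians of -0.03, 0.30 and 0.01 in callosal, subcerebral and corticothalamic neurons over 81 members.

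Glycolysis genes had a median callosal step of 0.20 over 18 members. Targets of the hypoxia-inducible factors had a median of -0.15 over 24 members, with 3 passing as higher and 8 as lower. Vegfa, the vascular growth factor, was at 69.1 FPKM at E18 and 34.0 FPKM at P1, the glucose transporter gene Slc2a1 at 5.45 and 1.98 FPKM (step -1.11) and the histone demethylase gene Kdm3a at 16.6 and 7.52 FPKM (step -1.05). These 3 were the hypoxia targets at least 2-fold lower in callosal neurons. In callosal neurons Vegfa had risen before birth, from 32.6 and 49.7 FPKM at E15 and E16. Cholesterol synthesis genes had a median of -0.16 over 24 members, and ketone body and fatty acid oxidation genes 0.01 over 20.

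Related arrestin-domain genes, chosen after their values were seen, went both ways. Arrdc4 was at 15.1 FPKM at E18 and 33.1 FPKM at P1 (step 1.08), and Arrdc3 at 15 and 35.1 FPKM (step 1.18). Both were higher in the other subtypes too, by 0.91 and 0.66 for Arrdc4 and by 0.94 and 0.89 for Arrdc3. The promoter of Txnip is shown because this gene has one of the largest steps and is known as a target of glucose-sensing factors. Its letters hold a carbohydrate response element, searched as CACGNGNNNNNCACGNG on both strands, which can overlap an E-box. This pattern occurs in 16 of 32851 promoters (0.0487%). The promoter spans chr3:96557707-96558006 on the plus strand (RefSeq, GRCm38.p6), and the match, in capitals, begins 85 bases before the start.
Txnip: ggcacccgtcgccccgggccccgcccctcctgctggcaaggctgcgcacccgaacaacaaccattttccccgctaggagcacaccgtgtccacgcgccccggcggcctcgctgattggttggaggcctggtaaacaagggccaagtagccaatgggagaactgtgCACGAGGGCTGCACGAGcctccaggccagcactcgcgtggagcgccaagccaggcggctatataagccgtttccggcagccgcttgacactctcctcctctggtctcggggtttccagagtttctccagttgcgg

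Several circadian clock genes, but not all, had larger steps in callosal neurons by size. No difference from the other subtypes passed an adjusted test. The clock is a loop in which CLOCK and its partners drive genes with E-box promoters, among them repressors that feed back on it, and PAR-domain factors such as Hlf and Dbp relay the rhythm. In the group of glucocorticoid and circadian targets, 7 of 21 members were 2-fold higher in callosal neurons and none 2-fold lower, and the medians were 0.60, 0.07 and 0.01 in callosal, subcerebral and corticothalamic neurons. With a pseudocount of 5 the callosal median was 0.32. The limma stage test called 4 higher and none lower. Hlf was at 1.73 FPKM at E18 and 9.50 FPKM at P1 in callosal neurons (step 1.95), at 1.29 and 2.89 FPKM in subcerebral and at 7.37 and 10 FPKM in corticothalamic neurons. At P1, callosal neurons thus stood near the corticothalamic level, after lying well below it at E18. Nr1d1, the nuclear receptor REV-ERB alpha, was at 22.3 and 62.8 FPKM in callosal neurons (step 1.45), against 24.6 and 38.5 FPKM in subcerebral and 35.1 and 46.1 FPKM in corticothalamic neurons. The clock repressor Ciart, listed under its older name Gm129, was higher in all 3 subtypes, at 1.41 and 8.01 FPKM in callosal (step 1.91), 2.19 and 8.43 FPKM in subcerebral and 3.73 and 13.9 FPKM in corticothalamic neurons. Dbp was at 2.48 and 6.62 FPKM (step 1.13), Nr1d2 at 4.44 and 10.6 FPKM (step 1.09) and Zbtb16 at 1.01 and 3.32 FPKM (step 1.1). Klf9, a Kruppel-like factor induced by glucocorticoid, was at 5.44 and 13.8 FPKM (step 1.20). Its callosal step lay between those of subcerebral (1.40) and corticothalamic neurons (1.01).

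Other clock genes, chosen after their values were seen, did not all move the same way. Npas2, a partner of Arntl, was at 9.44 and 21.5 FPKM (step 1.11), and Usp2, a clock-controlled deubiquitinase, at 2.85 and 9.65 FPKM (step 1.47). Arntl, the partner of CLOCK, was at 13.3 and 23.8 FPKM (step 0.80) in callosal neurons and moved by 0.03 and -0.16 in the others. Clock itself was at 6.38 FPKM at E18 and 6.37 FPKM at P1, and Per2 at 3.57 and 2.95 FPKM (step -0.21). Per1 was at 12.2 and 18.9 FPKM (step 0.60), with steps of 0.29 in subcerebral and 0.68 in corticothalamic neurons. Nfil3, a repressor that binds the same sites as Hlf and Dbp, was lower at P1 in all 3 subtypes, from 65.9 to 32.1 FPKM in callosal neurons (step -1.02), with steps of -1.34 and -1.09 in the others. The sources used here give no hour of collection. The promoter of Ciart is shown for its E-boxes CACGTG, a palindrome found in 7.15% of the 32851 promoters, in 12.1% of those matched to the 13216 genes and in 10.5% of those of the 2-fold higher genes. It spans chr3:95882179-95882478 on the minus strand (RefSeq, GRCm38.p6) and holds 3 matches, in capitals, that begin 116, 58 and 44 bases before the start.
Ciart: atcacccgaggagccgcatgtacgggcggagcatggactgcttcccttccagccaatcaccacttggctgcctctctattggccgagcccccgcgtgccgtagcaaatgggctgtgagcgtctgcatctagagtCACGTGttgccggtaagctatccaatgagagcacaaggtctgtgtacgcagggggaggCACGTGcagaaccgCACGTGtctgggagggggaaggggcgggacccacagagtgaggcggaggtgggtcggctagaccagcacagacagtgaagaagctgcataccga

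Zinc finger genes fell as a class. The genes named Zfp, Zscan or Zkscan, a group chosen after its values were seen, encode mostly DNA-binding repressors, many with a KRAB domain that recruits silencing complexes. Of 338 members 37 were at least 2-fold lower in callosal neurons (10.9%, against 1.63% of all genes) and 1 was 2-fold higher. Their median step was -0.50, with 84.9% of the steps below 0, and the medians in subcerebral and corticothalamic neurons were -0.56 and -0.49. In the limma test 236 of 336 were lower at P1 and 11 were higher. Zfp82, for example, was at 11.9 FPKM at E18 and 3.57 FPKM at P1 in callosal neurons (step -1.50), after 13.4 and 12.7 FPKM at E15 and E16. At least 2-fold lower in all 3 subtypes were 28 of the genes. Centring the 5 transcript-length classes at 0 left the median at -0.50.

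**Figure D4:**
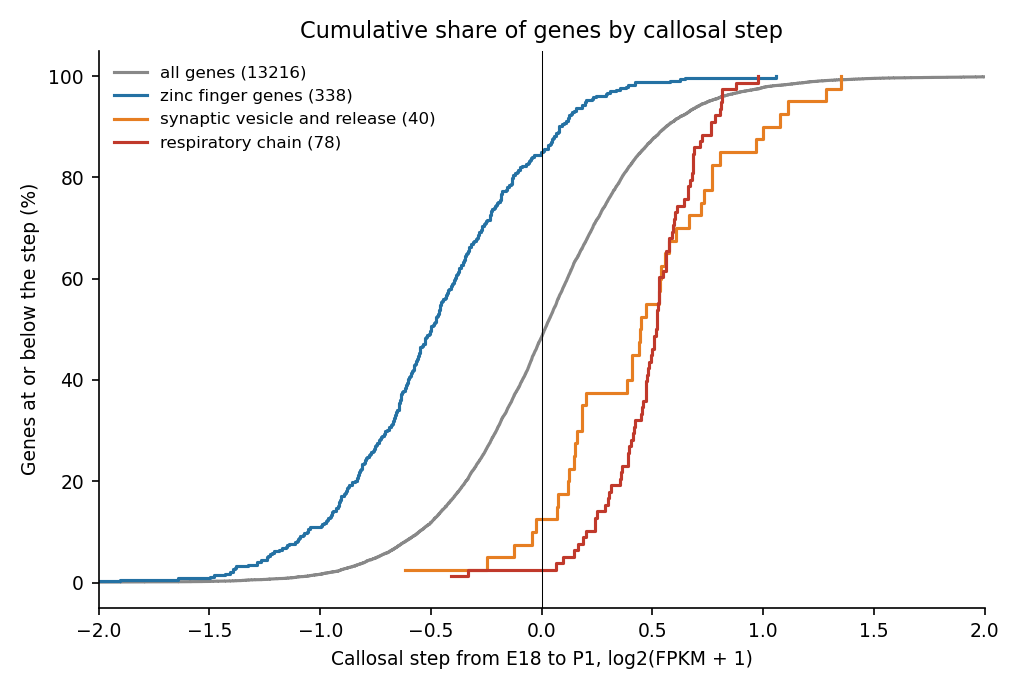
Cumulative share of genes (y axis, percent) at or below a callosal step in log2(FPKM + 1) (x axis) for all 13216 genes (grey), 338 zinc finger genes (blue), 40 synaptic vesicle genes (orange) and 78 respiratory chain genes (red). The zinc finger curve lies to the left of that of all genes, with 84.9% of its members below 0, and the respiratory chain curve to the right.

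Genes of callosal identity had a median step of 0.22 (0.066 after quantile normalization) over 27 members in callosal neurons, and of -0.26 and -0.45 in subcerebral and corticothalamic neurons. For 22 of the 27 the callosal step was above the mean step of the other subtypes. In the largest other groups this held for 196 of 338 zinc finger, 3 of 81 ribosomal protein and 6 of 78 respiratory chain genes. The share was not computed over all genes, so the count of 22 is a description only. No member passed the adjusted limma test of this difference, described further on. Besides Cux2, with a step of 0.45 against -0.64 and -0.68 in the other subtypes, 4 members were 2-fold higher in callosal neurons. Plxnd1, a receptor for semaphorin 3E, was at 16.2 FPKM at E18 and 41.7 FPKM at P1 (step 1.32), and did not exceed 4.55 FPKM in the other subtypes at these stages. Lpl, or lipoprotein lipase, was at 67.7 and 145 FPKM (step 1.08), the small heat shock gene Hspb3 at 16 and 34.2 FPKM (step 1.05), and Dkk3, a secreted protein of the Dickkopf family, at 19.9 and 44.7 FPKM (step 1.13). For Dkk3 the steps of the other subtypes were larger, at 2.21 and 1.76. Frmd4b, a scaffold protein, was 2-fold lower, at 45.2 and 19.6 FPKM (step -1.17). Subcerebral and corticothalamic identity genes had callosal medians of 0.23 over 16 members and -0.21 over 12.

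Axon guidance families showed single genes rather than a common direction. Semaphorin, plexin and neuropilin genes had a median callosal step of 0.09 over 24 members, the netrin and slit pathway 0.02 over 17, and ephrins and Eph receptors 0.03 over 17. Cadherins and protocadherins had a median of 0.23 over 21. In the ephrin family 3 members were 2-fold higher, namely the ligand Efna5 (7.24 and 23.7 FPKM, step 1.58) and the receptors Epha8 (7.35 and 17.5 FPKM, step 1.15) and Ephb3 (1.78 and 5.20 FPKM, step 1.16). Robo1, a slit receptor, was lower at P1, at 30.2 and 16.3 FPKM (step -0.85), and had been at 59.1 and 46.0 FPKM at E15 and E16.

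Callosal steps ran close to those of the other subtypes. Over the same 13216 genes, 228 were 2-fold higher in subcerebral (1.73%) and 259 in corticothalamic neurons (1.96%), and 210 (1.59%) and 276 (2.09%) were 2-fold lower. Across genes, the callosal step had a Spearman correlation of 0.83 with the subcerebral and 0.84 with the corticothalamic step. These are descriptions, since genes are not independent replicates and groups of a stage may share collection and sequencing. At least 2-fold in all 3 subtypes were 79 of the 297 higher genes (26.6%) and 96 of the 216 lower genes (44.4%). Ranked by the smallest of their 3 steps, and with small RNA and accession entries left aside, the leading higher genes included Igfbp5, Ddn, the entry of the adaptor 14-3-3 gamma and Sidt1, and the lower ones were led by Mid1, Zfp658, 2610042L04Rik and Zfp60. Past 2-fold in callosal neurons alone were 127 higher and 61 lower genes. In 98 of the 127 and 51 of the 61, both other subtypes moved in the same direction. The mean step of the other subtypes had a median of 0.52 over the 127 genes and -0.67 over the 61.

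Whether the callosal step differed from the mean step of the other subtypes was tested with limma over all 12 groups, with 3 residual degrees of freedom. The SE and p of this fit come from how the difference between subcerebral and corticothalamic neurons changed with stage. They hold no spread of callosal values and assume that these vary like the others. At an adjusted p under 0.05, 1 of 13946 genes passed (0.00717%), an entry named only by an accession, and the next lowest adjusted p was 0.728. At an unadjusted p under 0.05 there were 181 genes. None of the 177 callosal-alone genes that could be tested passed the adjusted threshold. An unadjusted p under 0.05 was found for 33 of them, against 1.3% of all 13946 genes. These 177 were picked by the size of the same difference, so their count of low p is raised by that choice. With no filter, the protein-coding gene Atp10b and the small RNA genes Mir708 and Snord15a passed among others, and the genes with a symbol that passed when E15, E16 or both were left out were small RNA genes. By size, the same entries left aside, the largest differences among genes with a callosal step of 1 or more were those of Plxnd1, Hlf, Tbc1d5 and Hmgcs1. The limma unadjusted p was 0.104 for Plxnd1 (1.37 ± 0.70), 0.261 for Tbc1d5 (1.31 ± 1.05) and 0.319 for Hmgcs1 (1.28 ± 1.17), so these 3 did not pass even without adjustment. Hlf exceeded the others by 1.36 ± 0.24 (SE of the limma fit; unadjusted p = 0.00165), Kcnh1 by 1.09 ± 0.21 (limma unadjusted p = 0.00289) and Nr1d1 by 0.95 ± 0.25 (limma unadjusted p = 0.0106). For Cux2 the difference was 1.11 ± 0.32 (limma unadjusted p = 0.0145). Tbc1d5, a regulator of endosomal sorting, was at 13.3 and 42.1 FPKM in callosal neurons, against 51.9 and 58.6 FPKM in subcerebral and 7.43 and 9.97 FPKM in corticothalamic neurons. The ion channel modulator Fgf14 was at 1.96 and 5.69 FPKM in callosal neurons (step 1.18) and moved by 0.10 and -0.13 in the others. On the lower side, Ntf3 (-1.13 ± 0.31, limma unadjusted p = 0.0121) and Pdzrn4 (12.2 and 3.55 FPKM, difference -1.03 ± 0.39, limma unadjusted p = 0.0398) differed most by size. Of Hlf, Kcnh1, Nr1d1, Cux2, Ntf3 and Pdzrn4, none passed the adjusted threshold. All but Cux2 were picked by the size of this difference or of the callosal step, and that choice favours low unadjusted p-values.

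**Figure D5:**
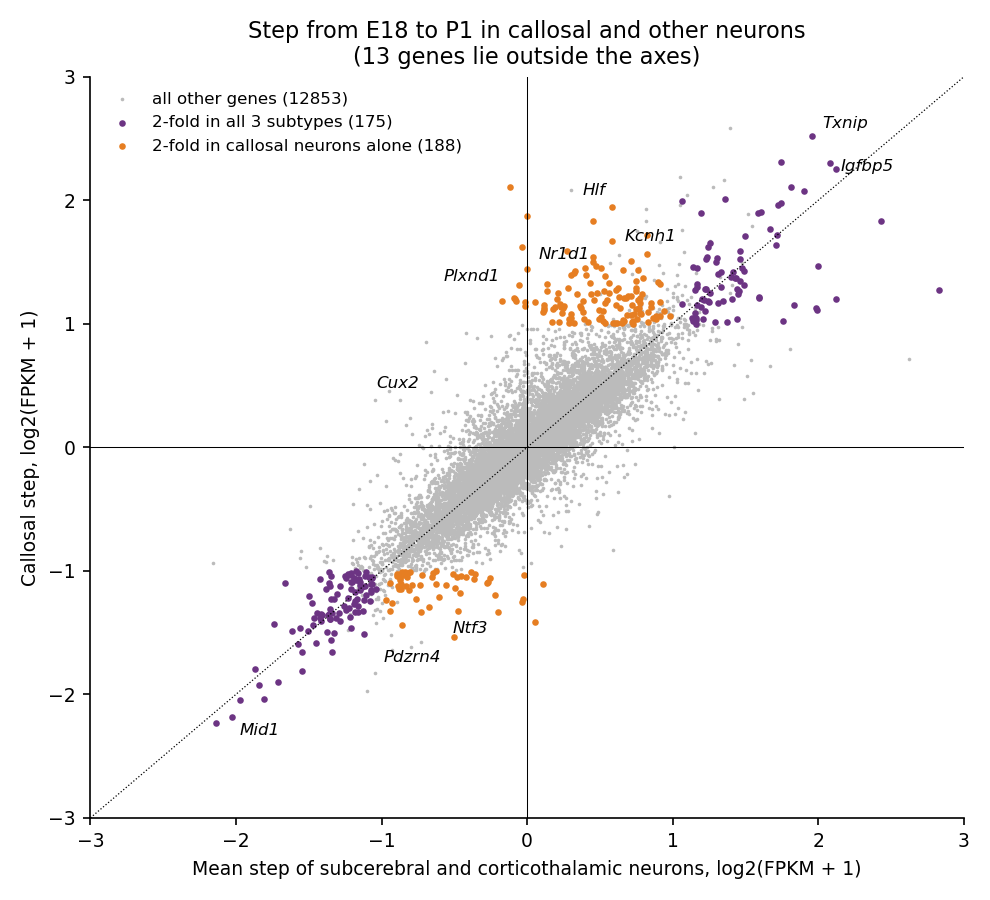
Step from E18 to P1 in callosal neurons (y axis) against the mean step of subcerebral and corticothalamic neurons (x axis), both in log2(FPKM + 1), for the 13216 genes, of which 13 lie outside the axes. Purple points are the 175 genes past 2-fold in all 3 subtypes and orange points the 188 past 2-fold in callosal neurons alone. Most points lie near the dotted line of equal steps.

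Values of other cell types and of sex-linked genes were read beside these results. Of 15 microglia genes 11 were members, with a median callosal step of 0.01 and a summed level of 38.1 FPKM at E18 and 41.8 FPKM at P1. C1qa was at 3.09 and 2.78 FPKM in callosal neurons, against 0.190 FPKM or less in the others. Of 18 astrocyte and radial glia genes 10 were members, with a median of -0.02 and a sum of 104 and 67.1 FPKM. Hes1 was the 2-fold higher one, and Ptprz1, a phosphatase of radial glia, was 2-fold lower, at 57.6 and 22.6 FPKM (step -1.32). Vascular genes summed to 7.20 and 6.06 FPKM, oligodendrocyte genes to 24.6 and 20.9 FPKM, proliferation and progenitor genes to 97.4 and 101 FPKM, red blood cell genes to 4.07 and 2.49 FPKM, and Cajal-Retzius genes to 8.30 and 5.98 FPKM. Interneuron genes summed to 242 and 404 FPKM, nearly all of it Npy, and subplate genes to 107 and 269 FPKM, of which Nrgn gave 47.4 and 207 FPKM. Of 8 red blood cell genes 4 were listed at 0 at E18 and 3 at P1, and no microglia gene was listed at 0. The defining interneuron gene Gad1 was at 0.293 and 0.268 FPKM. Xist, which is expressed from the inactive X chromosome of females, was lower at P1 in all 3 subtypes, at 33.1 and 12.4 FPKM in callosal neurons (step -1.35). The Y-linked genes Ddx3y (2.65 and 6.38 FPKM, step 1.02) and Eif2s3y (12.4 and 26.1 FPKM, step 1.01) were higher in all 3. Kdm5d, also Y-linked, moved less (2.18 and 3.06 FPKM, step 0.35), with steps of 0.42 and 0.53 in the others, and the Y-linked Uty was level at 0.865 and 0.797 FPKM (step -0.05), with steps of -0.0043 and -0.03 in the others. The part of these sex-linked differences in the other results, including that of the X-linked Mid1, was not tested.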

How the data were processed

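RNA from FACS-sorted neurons was recovered with a total nucleic acid kit and sequenced after poly(A) selection, per the labels' protocols. There were 24 libraries, 2 for each of the 12 combinations of 4 stages and 3 subtypes. Per the submitters' processing notes, the authors used TopHat2, Cufflinks and the mouse build mm9. Versions, annotation, strand use and the way of pooling are not given in those sources. The deposited table has 1 value per group and no unit in its header, and its values were read as FPKM from the use of Cufflinks and from the values. Column sums were 379367 for E18 callosal and 414861 for P1 callosal neurons. FPKM values keep no counts, so the depth is unknown and no counting interval is given. Overlapping genes and near-identical copies may share reads.

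Genes at 1 FPKM or more in either callosal column were kept, a pseudocount of 1 was added, and a gene was called at a log2 step of at least 1 in either direction. The tests used limma 3.58.1 in R 4.3.3 (lmFit, contrasts.fit, eBayes with trend and robust moderation) on log2(FPKM + 1) of genes at 1 FPKM in at least 2 columns, with Benjamini-Hochberg adjustment. The fits were run on simulated data with known changes, as a check of the estimated differences. The share of those changes recovered is not given, so the power of the tests is not shown. The design allowed for a value per library, and the pooled columns left its fallback on group values. The stage fit had 6 residual degrees of freedom. Neither its p-values nor those of the test of the callosal step measure the spread between libraries. Named genes were the 12 largest callosal rises and falls at 5 FPKM or more in either column, the 8 largest shared steps and the 8 largest differences from the other subtypes in each direction, up to 4 genes of each of the 39 lists, and markers. Small RNA and accession entries that met this rule were replaced by the next genes, and a few genes outside it were chosen after their values were seen. A few genes that met the rule are not reported here. The members and lists were chosen with earlier results of these data known. Older symbols were matched through RefSeq. Promoters are RefSeq's for GRCm38.p6, which is not the authors' build, so no other coordinates are given. Transcript lengths are those of the longest GENCODE transcript. Alternatives were other pseudocounts, filters, scalings and sets of columns.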

Additional observations from a re-analysis of the deposited data

Results flagged for a closer look

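One result stood apart between the subtypes. An entry named only by a sequence accession was at 17.7 FPKM at E18 and listed at 0 at P1 in callosal neurons, while it went from 4.75 to 26.2 FPKM in subcerebral neurons and from 0 to 4.21 FPKM in corticothalamic neurons. Its callosal step was below the mean step of the others by 6.53 on the log2 scale (difference -6.53 ± 0.35, limma adjusted p = 0.0454). A value of 0 in this table can be a failed estimate. The entry passed in 5 of the 11 settings tried and did not pass with a pseudocount of 0.1 or 5.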

How the results depend on the processing

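No paired analysis was possible because the table holds 1 pooled value per group, and for the same reason no library could be left out. With a pseudocount of 0.1 the counts of genes 2-fold higher and lower were 579 and 568, with 5 they were 82 and 33, and with a filter of 5 FPKM 140 genes were lower. They stayed within 1.5 times of 297 and 216 in the other settings, which were no filter, median-ratio scaling, quantile normalization, leaving out loci without a symbol and, chosen after seeing the data, leaving out small RNA and accession entries or centring 5 transcript-length classes. The number of genes whose callosal step differed from the others was 0 with a pseudocount of 0.1, with 5, with a filter of 5, with quantile normalization and without trend and robust moderation, 5 with no filter, 6 with E18 and P1 alone, 4 without E15 and 2 without E16. The stage count stayed between 4102 and 7623. Of the 182 named genes, 30 dropped under 2-fold with a pseudocount of 5 and 1 with quantile normalization, and none changed sign among those past 2-fold. Of 231 medians of gene groups under alternatives, 190 stayed within 0.1 of the reported value, and 11 of the 39 groups changed sign under at least 1. Of these, 9 were within 0.1 of 0 as reported, among them immediate early genes (-0.069), microglia (-0.083) and imprinted genes (0.047) with the length classes centred, and semaphorins (-0.052), netrin and slit (-0.096) and sodium, calcium and HCN channels (-0.079) after quantile normalization. The other two were the interferon group, with 0.11 as reported, -0.28 after median-ratio scaling, -0.23 after quantile normalization and -0.039 with the length classes centred, and the oligodendrocyte group, with 0.14 as reported and -0.42 with a filter of 5 FPKM. Quantile normalization lowered the medians of heat shock genes to 0.096 and of glycolysis to 0.070. The genes that passed the test of the callosal step in settings other than the reported one were accession entries, loci without a symbol, small RNA genes and, with no filter, Atp10b. Depth limits the low genes most, and by how much is unknown.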

Other observations

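Other gene groups gave values in callosal neurons that belong to no comparison above. Heat shock and unfolded protein response genes had a median step of 0.30 over 24 members, with 11 passing the limma stage test as higher and 2 as lower. Asns, which makes asparagine, was at 19.3 FPKM at E18 and 34.5 FPKM at P1 (step 0.81), and the chaperone Hsph1 at 56.4 and 94.9 FPKM (step 0.74), while the disulfide isomerase Pdia4 was at 26.6 and 14.4 FPKM (step -0.84). Immediate early genes had a median of 0.09 over 22 members, and of -0.069 with the transcript-length classes centred. Nr4a1, an orphan nuclear receptor, was at 3.73 and 11.6 FPKM (step 1.41), and Dusp1, a phosphatase of MAP kinases, at 18.1 and 9.16 FPKM (step -0.91).

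Imprinted genes had a median step of -0.03 over 19 members, and of 0.047 with the transcript-length classes centred. Ndn, or necdin, was at 105 and 203 FPKM (step 0.95) and the maternally expressed RNA Meg3 at 328 and 579 FPKM (step 0.82). Thyroid hormone targets had a median of 0.35 over 11 members, 2 of which, Nrgn and Klf9, were 2-fold higher and are also in other groups. Apoptosis genes had a median of -0.05 over 16 members. The 7 interferon response and MHC class I genes had a median of 0.11, which changed sign under other scalings. H2-K1 was at 2.53 and 7.4 FPKM (step 1.25), and Irf9, a subunit of the interferon-activated factor, was at 12.4 and 5.35 FPKM (step -1.07). The mitochondrially encoded gene mt-Nd4 was at 1413 and 1373 FPKM (step -0.04).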
